A study of Homo sapiens with 12 samples.

Results

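The genes described here are 10 heat shock and chaperone genes, taken by symbol from the deposited table of read counts: HSPA1A, HSPA1B, HSPH1, DNAJB1, HSPB1, BAG3, HSPA8, HSP90AA1, HSPD1 and HSPE1. They are 10 of the 58051 genes in that table, each symbol occurs on 1 line, and all 10 had enough counts to be tested in every comparison. The RNA came from MDA-MB-231, a triple-negative breast cancer cell line, so all groups share 1 tumour background. Cells of all 4 groups were transfected with pools of siRNA, short RNAs that direct the breakdown of a matching mRNA, at 50 to 100 nM, and each group has 3 libraries. In siControl the pool was non-targeting, in siNELFA it was directed at NELFA, in siYAP at YAP, and siNELFA+siYAP received both. The labels give 48 h and 72 h, and the study's methods give 72 h and 3 independent biological replicates for the sequenced RNA. No heat treatment is named for any group, so the values are levels in cells grown without a stated stress.

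Chaperones bind unfolded protein and help it to fold, refold or be cleared, and many cells carry a basal set that is increased after heat, proteotoxic drugs or oxidative stress. The increase runs through heat shock factors such as HSF1, which bind repeats of nGAAn in promoters. Heat shock genes are also the textbook case of promoter-proximal pausing, in which RNA polymerase II starts a transcript and then waits just downstream of the start site. NELFA is a subunit of NELF, a complex that holds the paused polymerase. YAP is a transcriptional coactivator of the Hippo pathway that acts through TEAD factors. Of the members, 6 are grouped here as stress-inducible, by their known response and not by their level in these cells. HSPA1A and HSPA1B encode near-identical inducible HSP70 proteins, DNAJB1 encodes a J-domain co-chaperone that delivers substrate to HSP70, HSPH1 encodes an HSP110 nucleotide exchange factor for HSP70, BAG3 encodes a co-chaperone that links HSP70 to autophagy, and HSPB1 encodes the small heat shock protein HSP27. The other 4 are known as chaperones abundant without stress. HSPA8 encodes the constitutive HSC70, HSP90AA1 the cytosolic HSP90 alpha (also heat inducible), HSPD1 the mitochondrial chaperonin HSP60 and HSPE1 its co-chaperonin HSP10.

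By the GENCODE annotation of GRCh38, which is not the release the authors counted on, the inducible HSP70 genes are neighbours, with HSPA1A (ENSG00000204389) at chr6:31815543-31817946 on the plus strand and HSPA1B (ENSG00000204388) at chr6:31827738-31830254 on the plus strand. Their co-chaperones are HSPH1 (ENSG00000120694) at chr13:31134973-31162388 on the minus strand, DNAJB1 (ENSG00000132002) at chr19:14514769-14560391 on the minus strand and BAG3 (ENSG00000151929) at chr10:119651380-119677819 on the plus strand. The small heat shock gene is HSPB1 (ENSG00000106211) at chr7:76302673-76304295 on the plus strand. Of the abundant members, HSPA8 (ENSG00000109971) at chr11:123057489-123063230 on the minus strand and HSP90AA1 (ENSG00000080824) at chr14:102080742-102139699 on the minus strand encode cytosolic proteins. The mitochondrial pair is HSPD1 (ENSG00000144381) at chr2:197486584-197516737 on the minus strand and HSPE1 (ENSG00000115541) at chr2:197500140-197503449 on the plus strand. All values below are over the whole gene, since reads were counted on genes.

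The 250 bases before the start site of the members were read from RefSeq (GRCh38.p14) to show how the binding letters of heat shock factors lie in them. These windows were searched on both strands for the 3-unit heat shock element GAANNTTCNNGAA, for its 2-unit parts GAANNTTC and TTCNNGAA, and for the TATA box letters TATAAA. The 2-unit letters also occur within each 3-unit match. Of 35114 promoter windows in that table, 0.441% held the 3-unit element, 5.78% held GAANNTTC, 6.62% held TTCNNGAA and 10.7% held TATAAA. HSPA8, HSP90AA1 and HSPD1 held the 3-unit element, and 7 of 10 members held GAANNTTC in at least 1 of their windows. These counts are per gene, and some members have several windows, so they are not on the scale of the shares per window. Both HSP70 copies held TATAAA, and HSPH1, BAG3 and HSPE1 held none of these letters in their windows. Only exact letters were searched, so a window without a match was not shown to lack a site for heat shock factors. The sequences of HSPA1A, HSPA1B and HSP90AA1 are shown because these genes are followed most closely below. For HSPA8 and HSPD1, 30 bases each show 3-unit matches. HSPD1 held 2 that overlap, both shown, and HSPA8 held 2, of which the one nearer the start site is shown. Capitals mark the matches, and all are written 5′ to 3′ on the gene's strand.
HSPA1A, chr6:31815293-31815542, plus strand: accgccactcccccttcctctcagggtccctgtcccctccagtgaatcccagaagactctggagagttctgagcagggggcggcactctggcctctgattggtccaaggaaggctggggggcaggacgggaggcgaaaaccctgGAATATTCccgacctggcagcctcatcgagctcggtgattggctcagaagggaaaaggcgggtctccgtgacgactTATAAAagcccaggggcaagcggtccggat
HSPA1B, chr6:31827488-31827737, plus strand: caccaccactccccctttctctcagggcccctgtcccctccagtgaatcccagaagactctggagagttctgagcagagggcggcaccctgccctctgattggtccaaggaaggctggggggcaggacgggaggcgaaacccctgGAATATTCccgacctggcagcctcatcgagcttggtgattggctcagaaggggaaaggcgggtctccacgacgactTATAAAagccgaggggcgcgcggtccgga
HSP90AA1, chr14:102087045-102087294, minus strand: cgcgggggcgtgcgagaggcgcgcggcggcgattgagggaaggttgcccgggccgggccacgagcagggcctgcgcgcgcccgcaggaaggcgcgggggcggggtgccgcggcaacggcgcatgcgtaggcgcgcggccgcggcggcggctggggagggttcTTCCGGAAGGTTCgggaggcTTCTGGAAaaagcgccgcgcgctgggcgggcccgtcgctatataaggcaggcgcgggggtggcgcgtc
HSPA8, chr11:123062171-123062200, minus strand: gcgggccccTTCTGGAAGGTTCtaagatag
HSPD1, chr2:197500060-197500089, minus strand: cattTTCTGGAAAGTTCTGGAAccgagcga
The HSP90AA1 and HSPD1 matches lie before the second of 2 listed start sites of each gene. The 30 bases of HSPA8 and HSPD1 are also annotated as exon in other transcripts of the same gene. The windows of HSPA1A and HSPA1B were identical in 235 of 251 aligned columns (93.6%). Reads from these copies can be hard to place on one of them, so their separate counts are uncertain and their sum is given as well. By RefSeq, HSPD1 and HSPE1 lie head to head. There are 104 bases between the HSPE1 start site and the nearer of the 2 listed for HSPD1. In the GENCODE coordinates above, HSPE1 lies within the wider interval of HSPD1. A letter match is not a measurement of binding, and its relation to the changes below was not tested.

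Library depth ran from 9608145 to 18803104 counts on genes. The replicate 1 libraries of siControl, siNELFA and siYAP stood apart from the other 9. With all 3 libraries the biological coefficient of variation of these groups was 0.365, 0.351 and 0.364, and between replicates 2 and 3 alone it was 0.125, 0.155 and 0.149. It was 0.0615 in siNELFA+siYAP. The mesenchymal markers VIM, CD44, AXL, CAV1 and MSN were high in every library, and ESR1 and PGR, the hormone receptors that triple-negative cells lack, had at most 6 and 4 counts. CDH1, the epithelial cadherin, had 169 to 599 counts in those 3 replicate 1 libraries and 0 to 17 in the other 9. Of 6 epithelial and hormone receptor markers, 4 were higher in all 3, with a summed level of 1004 to 1259 normalized counts (reads scaled to a common depth by TMM factors) against 220.6 to 336.5. Of 5 mesenchymal markers 3 were lower, with sums of 65200 to 74120 against 72050 to 93500. Markers of blood, endothelium, fibroblasts and basal cells summed to 330.8 to 413.3 against 150.8 to 450.1. Of these, COL1A1 had 88 to 441 raw counts and PECAM1 had 30 to 85. VWF had at most 13, and CD3E and KRT5 had 0 in all libraries. The part of these libraries in the results below was not tested beyond the values given without them. The study does not say that replicate numbers pair the libraries. In siControl, siNELFA and siYAP, libraries with 1 number deviated together from their group means. Values from a fit blocked on the number therefore stand beside a result whose call they change, and such calls rest on that inferred pairing. The siNELFA+siYAP libraries did not deviate with the numbers, and their names carry 1 number with an index. The methods speak of independent replicates for the sequenced RNA as a whole, and no label says that these 3 libraries come from separate cultures. If they are repeats of 1 culture, their small spread is technical, and the SEs, p-values and shares of groups that do not overlap in every comparison with siNELFA+siYAP rest on that spread. NELFA had 379, 411 and 418 normalized counts in siControl and 149, 136 and 106 in siNELFA, and YAP1 had 4525, 4021 and 3696 in siControl and 691, 681 and 564 in siYAP. The log2 fold change of NELFA in siNELFA was -1.63 (adjusted p = 0.381 by edgeR, 0.000385 with the block), and that of YAP1 in siYAP was -2.67 (adjusted p = 0.0162). In siNELFA+siYAP, NELFA had 122.7, 101 and 95.0 and YAP1 had 661, 610 and 601.

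On the TPM scale, which divides by transcript length and so allows genes to be compared, the siControl mean was 1086 ± 368.8 (SD, n = 3) for HSPA8, 647.7 ± 183.8 for HSP90AA1 and 385.7 ± 71.83 for HSPD1. These 3 abundant chaperones were followed by HSPE1 at 224.1 ± 22.85 and by HSPB1 at 220.8 ± 62.4, so HSPB1, placed with the inducible genes, was as high as an abundant one. The remaining inducible genes were lower, with HSPA1B at 97.48 ± 20.23, HSPA1A at 78.23 ± 20.67, DNAJB1 at 76.27 ± 11.41, HSPH1 at 72.99 ± 15.21 and BAG3 at 43.21 ± 18.24. Among neighbours in this order, HSPA8 and HSP90AA1 overlapped between libraries, as did HSPE1 and HSPB1, and each step from HSPA1B down to BAG3. HSPA8 ranked first and BAG3 last in all 4 groups, and HSPB1 ranked above HSPE1 in the 3 knockdown groups. TPM and counts did not always move together, which limits this order. In siYAP, NELFA had 20.7, 67.8 and 12.7 TPM where it had 505, 378 and 332 normalized counts, and the cause was not tested. In bulk RNA, a lower level in each cell and fewer cells with the RNA cannot be told apart.

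**Figure D1:**
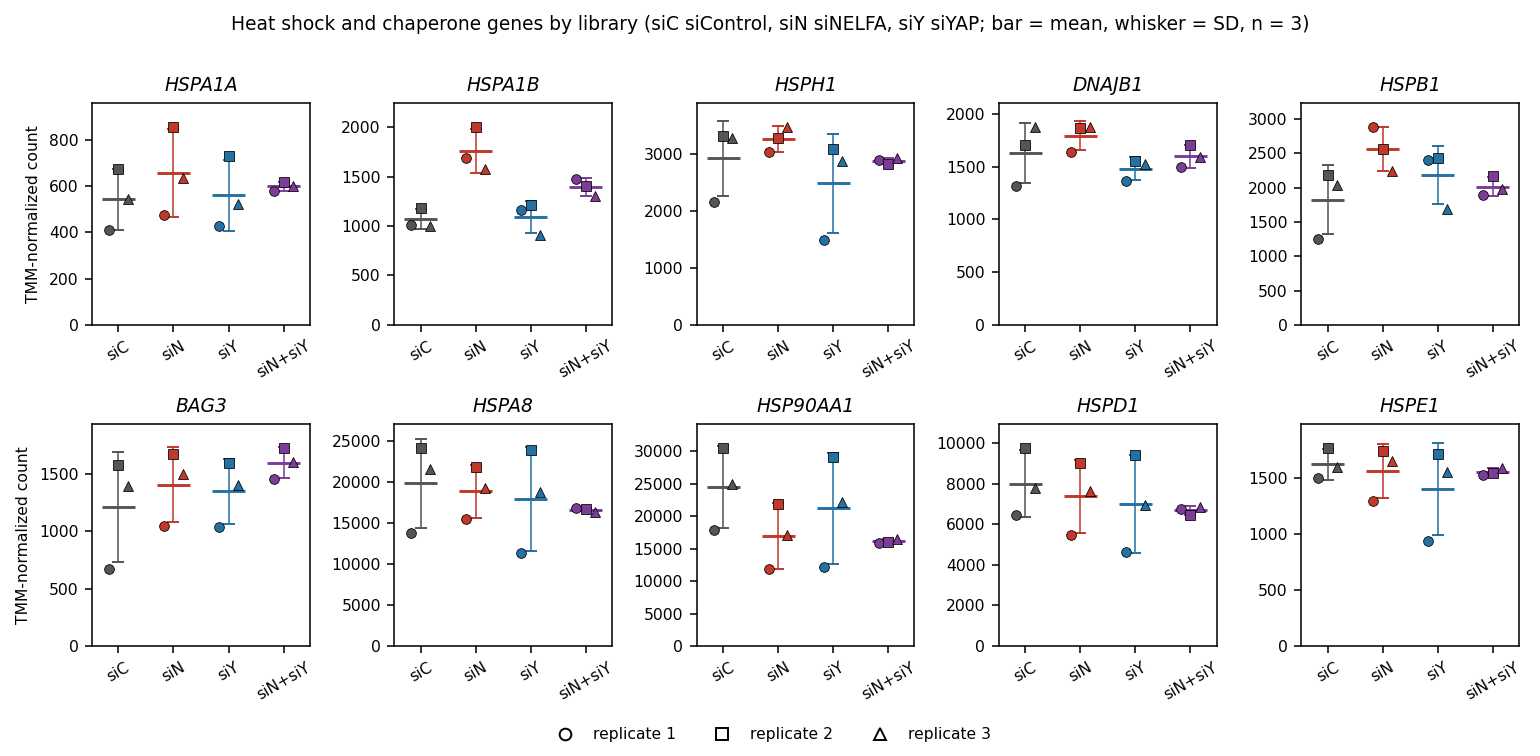
TMM-normalized read counts of the 10 members (vertical axis, from 0) in the 12 libraries by group (horizontal axis: siC is siControl, siN siNELFA and siY siYAP), with the replicate number as marker shape, the mean as a bar and the SD (n = 3) as a whisker. HSPA1B is at 1577 to 2004 in siNELFA and at 1003 to 1183 in siControl, and replicate 1 (circles) is the lowest siControl library for 9 of the 10 genes.

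Knockdown of NELFA asks how the members stand when the mRNA of this subunit of the pausing complex is reduced. The complex itself and pausing were not measured in these libraries. The inducible HSP70 gene HSPA1B had the highest log2 fold change of the members, HSP90AA1 had the lowest, and the other 8 were called in no fit of this comparison. HSPA1B had 1015, 1183 and 1003 normalized counts in siControl and 1685, 2004 and 1577 in siNELFA. All 3 siNELFA libraries were above all 3 siControl libraries. Their mean was 165% of the siControl mean, and the log2 fold change was 0.72 (SE 0.17), with an unadjusted p of 0.00319 and an adjusted p of 1 by edgeR's quasi-likelihood test. Adjustment was by Benjamini-Hochberg over all tested genes, and a gene was called where the adjusted p was under 0.05. With the replicate block it was 0.72 (SE 0.10) with adjusted p = 0.00264 by edgeR. With the block in a fit of all 12 libraries adjusted p was 0.0331 by edgeR. That fit also applies the numbers to the siNELFA+siYAP libraries, which did not deviate with them. Within the numbers, HSPA1B was higher by 0.73, 0.76 and 0.65 on the log2 scale in numbers 1, 2 and 3, so the difference was of like size in the replicate 1 pair and in the others. In the TPM values HSPA1B was 81.4, 120.2 and 90.8 in siControl and 113.9, 156.7 and 127.4 in siNELFA. There the groups overlapped, since the lowest siNELFA library was under the highest siControl library.

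HSP90AA1, the cytosolic HSP90 that matures kinases and steroid receptors, had 17892, 30496 and 24917 normalized counts in siControl and 11846, 21923 and 17073 in siNELFA. The groups overlapped, but each siNELFA library was below the siControl library of its number, by 0.60, 0.48 and 0.55 on the log2 scale. The log2 fold change was -0.53 (SE 0.28, adjusted p = 1 by edgeR), and with the replicate block -0.54 (SE 0.08) with adjusted p = 0.00377. With the block in a fit of all 12 libraries the call was lost, at adjusted p = 0.231 by edgeR. The same limit holds there, since the siNELFA+siYAP libraries did not deviate with the numbers. The mean was 69.4% of that in siControl.

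Without the block, edgeR called 0 of 10 members in siNELFA against siControl, where it called 0.00564% of 17727 tested genes. At an unadjusted p under 0.05 it was 1 of 10 members, HSPA1B, against 4.46% of genes, and DESeq2 also called 0 members. With the block 2 of 10 members were called, against 5.21% of genes, and 3 of 10 were under 0.05 unadjusted, against 20.2%. With the block over all 12 libraries 1 of 10 was called, against 0.238%. The 2 members whose groups did not overlap, HSPA1B and HSPB1, were both higher, as were 6.11% of 18525 genes. That share counts the higher direction only, which was taken from the members. The shares of groups apart given below for siYAP and for both pools against siControl count either direction. All 6 inducible members had a positive log2 fold change, with a median of 0.24 against 8.0e-05 over all tested genes, and all 4 abundant ones a negative one, with a median of -0.09. On the TPM scale HSPH1 and DNAJB1 turned to slightly negative values, at -0.07 and -0.01.

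Of the other inducible members, HSPB1 came nearest to a call. It had 1258, 2189 and 2031 normalized counts in siControl and 2886, 2561 and 2245 in siNELFA. The siNELFA libraries were all higher, but the difference sat mostly in number 1, at 1.20 on the log2 scale against 0.23 and 0.15 in numbers 2 and 3. The log2 fold change was 0.49 (SE 0.23, adjusted p = 1 by edgeR), and 0.51 (SE 0.16) with adjusted p = 0.0905 under the block. HSPA1A had 412, 674 and 543 normalized counts in siControl and 477, 857 and 635 in siNELFA. It was higher in 3 of 3 numbers, by 0.21, 0.35 and 0.23, with a log2 fold change of 0.27 (SE 0.27) and adjusted p = 1 by edgeR, or 0.265 under the block. BAG3 had 671, 1576 and 1394 normalized counts in siControl and 1043, 1674 and 1494 in siNELFA. It was also higher in 3 of 3 numbers, by 0.64 in number 1 and by 0.09 and 0.10 in the others. DNAJB1 was higher in 3 of 3, by 0.31, 0.14 and 0.0050, and HSPH1 by 0.49 in number 1 and by -0.02 and 0.08 in numbers 2 and 3. For scale, 21.7% of 18525 genes were higher in all 3 numbers and 21.7% were lower. The log2 fold changes of BAG3, HSPH1 and DNAJB1 were 0.21, 0.16 and 0.14, each with adjusted p = 1 by edgeR.

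The remaining abundant chaperones differed little. HSPA8 had 13780, 24209 and 21602 normalized counts in siControl and 15484, 21915 and 19337 in siNELFA, with a log2 fold change of -0.07 (SE 0.24). HSPD1 was at 6467 to 9765 and at 5456 to 9038, with -0.12 (SE 0.24), and HSPE1 at 1494 to 1766 and at 1292 to 1739, with -0.05 (SE 0.17). In all 3 genes the groups overlapped, and the spread between libraries exceeded the difference between groups.

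**Figure D2:**
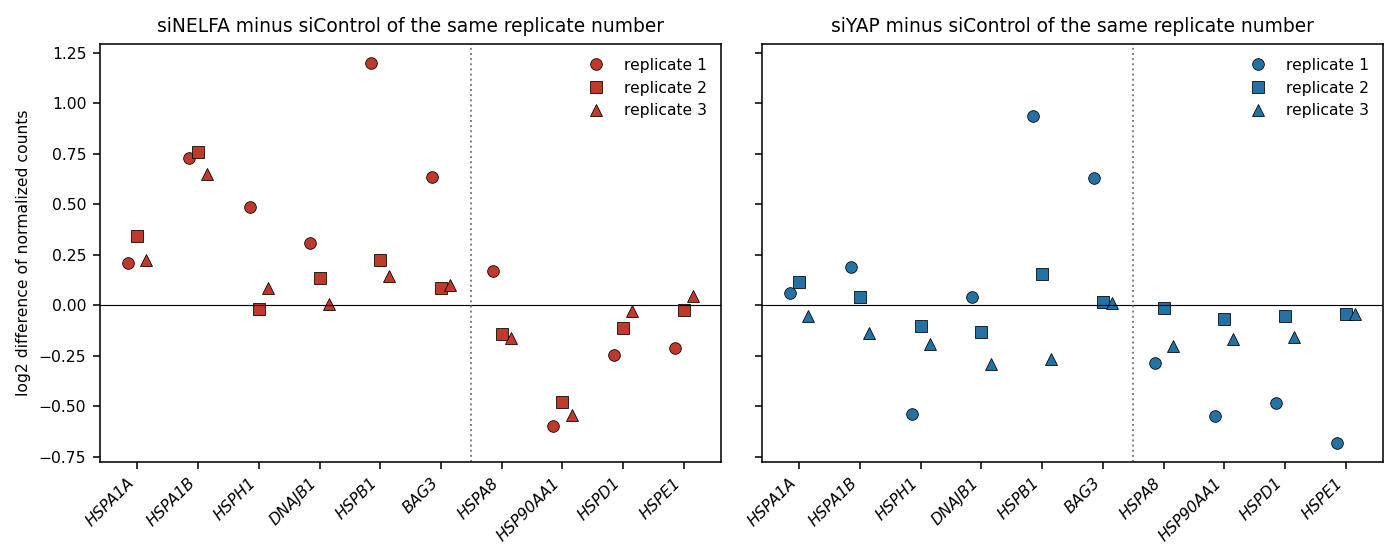
Log2 difference of TMM-normalized counts (vertical axis) between a knockdown library and the siControl library of the same replicate number, for each member (horizontal axis) in siNELFA (left) and siYAP (right), with 1 point per number and the stress-inducible members left of the dotted line. In siNELFA the 3 HSPA1B points lie between 0.65 and 0.76 and the 3 HSP90AA1 points between -0.60 and -0.48, while the HSPB1 points range from 0.15 to 1.20.

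The siYAP libraries address the same genes with YAP reduced and NELFA left at 505, 378 and 332 normalized counts. No member was distinguishable from siControl. The log2 fold changes ran from -0.24 for HSPH1 to 0.25 for HSPB1. HSPA1B, the member with the highest value in siNELFA, had 1159, 1216 and 911 normalized counts, 1 of them within the siControl range, 1 above and 1 below it, with a log2 fold change of 0.03 (SE 0.19). edgeR called 0 of 10 members, where it called 0.00578% of 17296 genes, DESeq2 also called 0, and at an unadjusted p under 0.05 it was again 0 members against 1.3% of genes. No member's groups were apart, as they were for 7.75% of 18525 genes. HSPH1 had 1489, 3092 and 2876 normalized counts in siYAP, with the replicate 1 library far below the others. It was lower in 3 of 3 numbers, by 0.54, 0.10 and 0.19, as were HSPA8, HSP90AA1, HSPD1 and HSPE1, against 18.1% of genes lower in all 3. In each of these 5 genes the number 1 difference was the widest. HSP90AA1 had 12228, 29103 and 22195 normalized counts, with a log2 fold change of -0.21 (SE 0.33). BAG3 was higher in 3 of 3, by 0.63, 0.02 and 0.01. With the block edgeR called 0 members, against 0.0173% of genes. The lowest adjusted p of a member was then 0.54 by edgeR, and HSPH1 and HSP90AA1 were the 2 members under 0.05 unadjusted, against 9.11% of genes.

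With both pools, HSPA1B was again higher and HSP90AA1 lower than in siControl, and the call depended on 1 control library. HSPA1B had 1477, 1408 and 1299 normalized counts in siNELFA+siYAP, all above siControl, with a log2 fold change of 0.37 (SE 0.12) and adjusted p = 0.18 by edgeR. HSP90AA1 had 15884, 15966 and 16539, all below siControl, with -0.61 (SE 0.18) and adjusted p = 0.153 by edgeR. edgeR called 0 of 10 members, where it called 0.428% of 17533 genes, and DESeq2 called 0. These 2 members were under 0.05 unadjusted, against 18.5% of genes. They were also the 2 whose groups did not overlap, against 29.0% of 18525 genes, so both shares were near or under those of all genes.

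Without siControl replicate 1, edgeR called 5 of 10 members in this comparison, against 24.4% of 18587 genes. HSP90AA1 was then at -0.78 (adjusted p = 9.65e-07), HSPA8 at -0.46 (1.35e-05), HSPD1 at -0.39 (0.00121), HSPH1 at -0.20 (0.0157) and HSPA1B at 0.35 (0.00859). HSPH1 turned to 0.072 when siControl replicate 2 was left out instead. Between replicates 2 and 3 of both groups it called 3 of 10, against 17.9% of 18176 genes: HSP90AA1 at -0.77 (adjusted p = 0.000181), HSPA8 at -0.47 (0.000881) and HSPD1 at -0.40 (0.0135). The siNELFA+siYAP levels of the abundant chaperones were 16844, 16704 and 16437 normalized counts for HSPA8 and 6757, 6450 and 6874 for HSPD1. They lie above the siControl replicate 1 values of 13780 and 6467, with the exception of 6450 in HSPD1, and below those of replicates 2 and 3.

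The other members overlapped with siControl. BAG3 had 1455, 1725 and 1604 normalized counts with both pools, of which 2 were above the highest siControl library, and a log2 fold change of 0.38 (SE 0.29). HSPB1 had 1894, 2174 and 1978 with 0.13 (SE 0.20), and HSPA1A had 579, 617 and 599 with 0.13 (SE 0.18). DNAJB1, HSPH1 and HSPE1 were within 0.08 of no change, at -0.04, -0.03 and -0.08. None of these 6 had an adjusted p under 0.513 by edgeR.

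**Figure D3:**
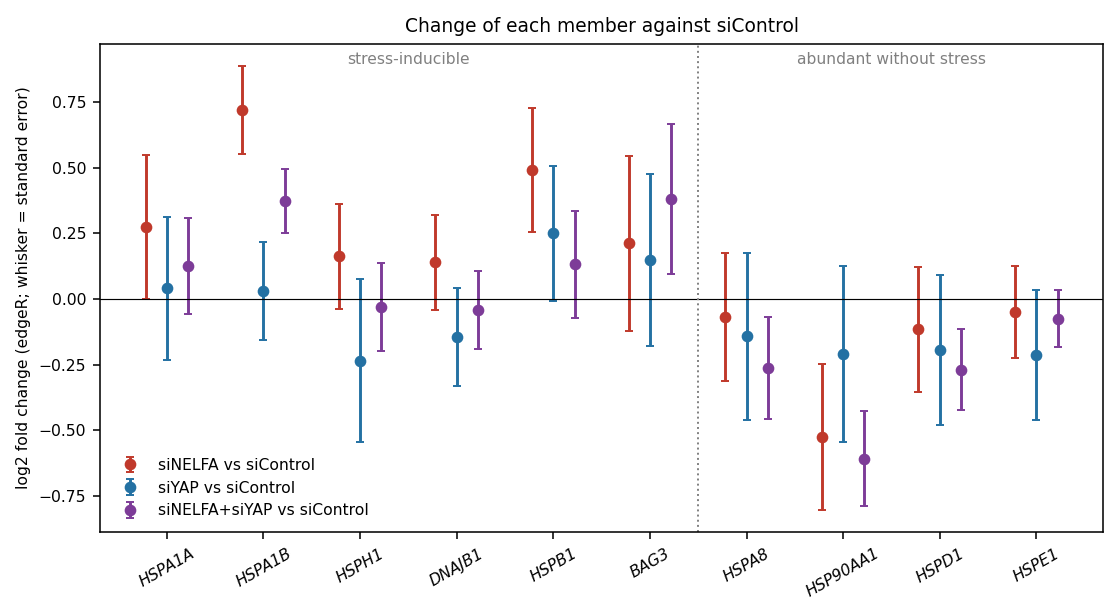
Log2 fold change against siControl (vertical axis) of each member (horizontal axis) in siNELFA, siYAP and siNELFA+siYAP from edgeR without the replicate block, with the standard error as whisker and the stress-inducible members left of the dotted line. HSPA1B is at 0.72, 0.03 and 0.37 and HSP90AA1 at -0.53, -0.21 and -0.61, and the 3 comparisons share their control libraries.

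Against siYAP, the double knockdown shows the addition of siNELFA when YAP is already low. HSPA1B was higher by 0.34 (SE 0.14, adjusted p = 0.308 by edgeR) and HSP90AA1 was at -0.40 (SE 0.27, adjusted p = 0.511). HSPA1B was the 1 member whose groups were apart, and 13.3% of genes were apart in that direction, which was taken from the member. edgeR called 0 of 10 members, where it called 0.035% of 17167 genes, with 1 under 0.05 unadjusted against 15.5% of genes, and DESeq2 called 0. Without siYAP replicate 1, it called 3 of 10 against 16.5% of 17773 genes: HSP90AA1 at -0.67 (adjusted p = 0.000456), HSPA8 at -0.36 (0.0108) and HSPA1B at 0.39 (0.0327). HSPA8 turned to 0.14 when siYAP replicate 2 was left out instead. Between replicates 2 and 3 only HSP90AA1 was called, at -0.66 (adjusted p = 0.015), against 7.7% of genes. The other 7 members had log2 fold changes between -0.12 and 0.24 in the full set.

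Compared with siNELFA, 9 of 10 members were lower with both pools, by 0.01 to 0.35 on the log2 scale, and BAG3 was higher by 0.18. The median was -0.16, against -0.01 over all tested genes. HSPA1B was at -0.33 (SE 0.13, adjusted p = 0.735 by edgeR) and HSPB1 at -0.35 (SE 0.13, adjusted p = 0.735). HSPA1B, HSPH1 and HSPB1 were lower in every double knockdown library than in every siNELFA library, as were 7.43% of 18525 genes. That share counts the lower direction only, which was taken from the members. edgeR called 0 of 10 members, where it called 0.00573% of 17463 genes, with 2 under 0.05 unadjusted against 6.62%, and DESeq2 called 0. Without siNELFA replicate 1 it called HSPA8, at -0.31 (adjusted p = 0.0246), against 1.25% of genes.

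Whether siNELFA acted otherwise with siYAP present was tested as the difference of both siNELFA effects over all 12 libraries. For HSPA1B it was -0.37 (SE 0.21), where the pairwise fits gave 0.72 without siYAP and 0.34 with it, and for HSPB1 -0.60 (SE 0.30). For HSP90AA1 it was 0.14 (SE 0.43). All 10 members had adjusted p = 1 by edgeR, which called 0 of 18525 genes, with 326 genes (1.76%) and 0 members under 0.05 unadjusted, and DESeq2 called 0 genes. The siNELFA effect on HSPA1B was therefore not shown to differ between cells with and without the YAP pool. With the block, whose numbers deviated together in 3 of the 4 groups, edgeR also called 0 genes. Unadjusted, 727 genes (3.92%) and 1 member, HSPB1, were then under 0.05.

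Most members were lower in the replicate 1 libraries of siControl, siNELFA and siYAP. In siControl, 10 of 10 members were lower in replicate 1 than the mean of replicates 2 and 3, with a median difference of -0.58 on the log2 scale, where the median over all genes was -0.04 and 25.6% of 18525 genes lay below the members' median. The count was 9 of 10 with a median of -0.40 in siNELFA, where 28.8% of genes lay below it, and 8 of 10 with -0.67 in siYAP, where 19.6% did. The all-gene medians there were -0.00038 and -0.0041. It was 6 of 10 with -0.04 with both pools, with 41.4% of genes below. BAG3 was furthest below in siControl, at -1.14, and HSP90AA1 in siYAP, at -1.06, whereas HSPA1B differed by -0.10, -0.08 and 0.14 in siControl, siNELFA and siYAP. In replicate 1 of those groups the 10 genes together made up 0.239 to 0.298% of all counts, against 0.378 to 0.524% in replicates 2 and 3, and 0.338 to 0.348% in the 3 double knockdown libraries. The spread of the members followed the libraries. Their coefficient of variation had a median of 23.3% in siControl, 16.1% in siNELFA, 28.4% in siYAP and 3.24% with both pools, where it ranged from 1.24 to 8.48%.

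The near-identical HSP70 copies were also summed. Their summed counts gave a log2 fold change of 0.58 (SE 0.19, adjusted p = 1 by edgeR) in siNELFA, and 0.58 (SE 0.10) with adjusted p = 0.00582 under the block. The sum was at 0.04 in siYAP and at 0.30 with both pools (adjusted p = 0.276 by edgeR). HSPA1A took 28.9, 36.3 and 35.1% of the pair's counts in siControl and 22.1, 29.9 and 28.7% in siNELFA, which is lower within each number although the groups overlap. The share was 27.0, 37.5 and 36.5% in siYAP and 28.1, 30.5 and 31.6% with both pools. By TPM the group means were closer, at 44.3, 42.2, 44.3 and 42.9%. The count share rests on how reads common to both copies were assigned, which is not given in the sources used here, so an unequal change of the copies was not separable from that assignment.

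**Figure D4:**
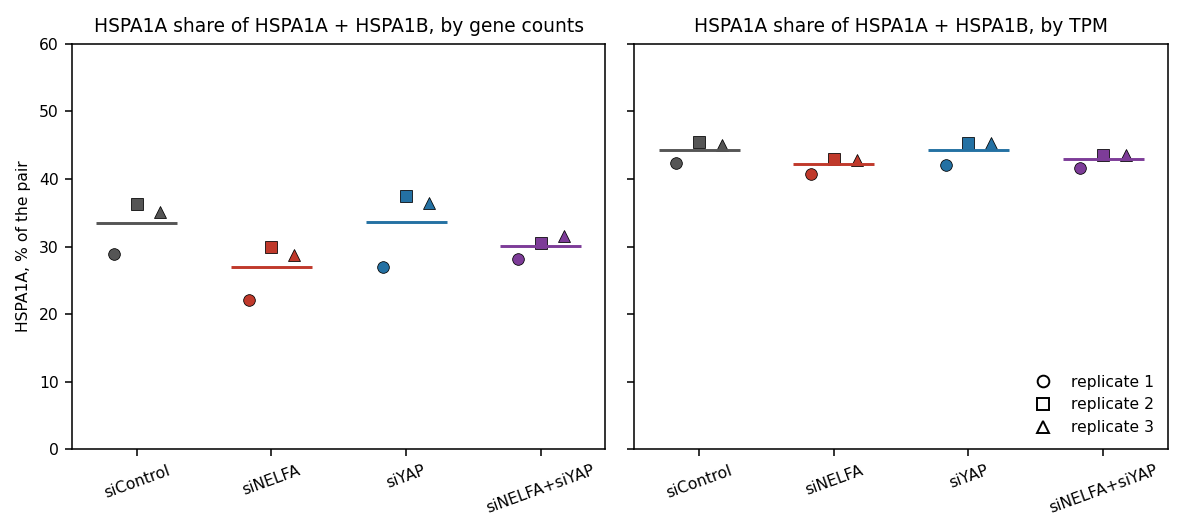
Share of HSPA1A in the sum of HSPA1A and HSPA1B (vertical axis, percent) in each library by group, from gene counts (left) and from TPM (right), with the group mean as a line and the replicate number as marker shape. By counts the siNELFA libraries are at 22.1 to 29.9% and the siControl libraries at 28.9 to 36.3%, and by TPM all 12 libraries are between 40.7 and 45.5%.

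HSPD1 and HSPE1, which share a bidirectional promoter region and encode partners of one chaperonin, moved together across libraries. Pearson's r of their log2 levels was 0.90 over 12 libraries and 0.96 over the 9 left without the 3 replicate 1 libraries. The ratio of HSPD1 to HSPE1 on the TPM scale had a siControl mean of 1.71 ± 0.137 (SD, n = 3). It was 1.56 ± 0.0681 in siNELFA, 1.79 ± 0.191 after siYAP and 1.44 ± 0.0929 with both pools. HSPA8 and HSPD1 had r of 0.94 and 0.95, and HSPA8 and HSP90AA1 0.86 and 0.93. HSPA1B stood apart from these, with r of -0.32 and -0.41 with HSP90AA1 and 0.09 and -0.10 with HSPA8. HSPA1A and HSPA1B had 0.52 and 0.72. These are descriptions over libraries that share groups, depth and the replicate 1 shift.

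The genes most like HSPH1 over the 12 libraries were LIN52, PPP2CA and YRDC (Pearson's r of 0.967, 0.965 and 0.957), and those most like HSP90AA1 were WDR35, NUP205 and BAZ1B (0.984, 0.983 and 0.983), out of 12971 genes. Without the 3 replicate 1 libraries, r was 0.983 to 0.996 for the genes like HSP90AA1. It dropped to between 0.622 and 0.845 for those like HSPH1.

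The heat shock factors themselves showed no call. HSF1, the main activator of the heat response, had 847, 1328 and 1410 normalized counts in siControl and 1380, 1196 and 1288 in siNELFA, with a log2 fold change of 0.11 (SE 0.22). It had 1656, 1317 and 1239 in siYAP and 1199, 1292 and 1300 with both pools, with 0.23 (SE 0.24) and 0.07 (SE 0.19). HSF2, a related factor, had 425, 279 and 227 in siControl and 298, 309 and 283 in siNELFA, and 214 to 239 with both pools, with -0.06 (SE 0.27) and -0.47 (SE 0.25). In siYAP, HSF2 was at -0.45 (SE 0.29), and the lowest adjusted p of either factor against siControl was 0.366 by edgeR.

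Further chaperone and heat-induced genes were described in 8 lists of 77 genes, of which 69 were tested. In siNELFA, 45 were higher and 24 lower than in siControl, and edgeR called 0, with 4 of 69 under 0.05 unadjusted, against 4.46% of all tested genes. With the replicate block 5 were called, all higher, against 5.21% of genes called in either direction and 2.76% called higher. Unadjusted, 11 higher and 2 lower of the 69 were then under 0.05, a share near the 20.2% of all tested genes. HSPA5, the HSP70 of the endoplasmic reticulum, had 21149, 15576 and 16849 normalized counts in siControl and 31764, 24578 and 25324 in siNELFA. The groups did not overlap, and the blocked log2 fold change was 0.61 (SE 0.08, adjusted p = 0.00183 by edgeR). DNAJB11, its J-domain partner in that compartment, was at 0.59 (SE 0.10, adjusted p = 0.0079 by edgeR). DNAJB2, a neuronal J-domain protein also made in other cells, was at 0.77 (SE 0.17, adjusted p = 0.0228 by edgeR). The DNAJB2 groups overlapped, with 267 normalized counts in the lowest siNELFA library and 275 in the highest siControl library. Its difference was widest in number 1, at 1.22 on the log2 scale against 0.36 and 0.74 in numbers 2 and 3. SQSTM1, the autophagy receptor p62, was at 0.46 (SE 0.09, adjusted p = 0.01), and SERPINH1, the collagen chaperone HSP47, at 0.42 (SE 0.10, adjusted p = 0.0303). Without the block each of the 5 had adjusted p = 1 by edgeR. With both pools they were at 0.46, 0.78, 0.91, 0.58 and 0.40 against siControl, in the order HSPA5, DNAJB11, DNAJB2, SQSTM1 and SERPINH1, with adjusted p of 0.0577 to 0.197 by edgeR. In siYAP they were at 0.04, 0.09, 0.52, 0.30 and 0.10. Over all 69 genes, 26 were higher and 43 lower in siYAP, with 0 called and 0 under 0.05 unadjusted, against 1.3% of all tested genes. With both pools 39 were higher and 30 lower, with 0 called. Unadjusted, 10 higher and 4 lower were under 0.05, a share near the 18.5% of all tested genes.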

How the data were processed

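RNA of MDA-MB-231 cells in 4 siRNA groups of 3 libraries each was depleted of ribosomal RNA, made into stranded libraries and sequenced by the authors. Alignment was by STAR, run in 2 passes on GRCh38 with Ensembl 87, and the authors deposited raw counts per gene from featureCounts. The options and version of the counting step are not given in the sources used here. The authors also deposited TPM per gene, in a table with some gene identifiers on more than 1 line. TPM served for levels between genes and as an alternative. The FPKM table was not used. Whole-series depth was 9608145 to 18803104 counts.

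Each pair of groups was compared under R 4.3.3 with TMM factors and the quasi-likelihood test of edgeR 4.0.16, on the 6 libraries of both groups. filterByExpr kept genes by its settings of 10 (count), 15 (total) and 70% (proportion). The difference of the siNELFA effects was fitted over 12 libraries. p-values were adjusted by Benjamini-Hochberg over all tested genes and called at 0.05. Normalized counts are counts divided by the TMM-scaled library size and multiplied by its mean over the 12 libraries. An SE is the log2 fold change divided by the square root of the test's F. The members and lists were chosen with earlier results of these data known. Named besides the members were HSF1 and HSF2, NELFA and YAP1, genes of the other lists with an adjusted p under 0.05 with or without the block, and the 3 genes with the highest Pearson r to HSPA1A, HSPH1 and HSP90AA1 among genes averaging at least 50 counts, of which those for HSPA1A are not reported here. The cell markers were a fixed list.

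The replicate numbers come from the sample titles. Deviations from the group mean of same-numbered libraries correlated over 12971 genes by 0.639 to 0.885 in 9 pairs that leave out siNELFA+siYAP, and by -0.0525 to 0.0263 in the 9 pairs that include it. In the 18 pairs with different numbers that leave out siNELFA+siYAP, r ran from -0.799 to 0.498, with the highest between siNELFA replicate 3 and siYAP replicate 2. Genes are not replicates in these correlations. No 2 replicates of a group agreed within sampling noise, with a chi-square per degree of freedom of 2.78 to 115. The 2.78 was between replicates 1 and 3 of siNELFA+siYAP, whose other pairs had 11.5 and 14.3. The next lowest value, 11.3, was between replicates 2 and 3 of siYAP. These values do not show whether libraries come from separate cultures. The alternatives were DESeq2 1.42.0, RLE factors, no filter on low counts, the replicate block, all 12 libraries, replicates 2 and 3 alone, each library left out in turn, HSPA1A and HSPA1B summed, and limma 3.58.1 on log2(TPM + 1) and log2(TPM + 0.1). The block with all 12 libraries was added after seeing the data. edgeR was tested on simulated data first.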

Additional observations from a re-analysis of the deposited data

How the results depend on the processing

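The siNELFA difference of HSPA1B kept its direction under every alternative run and was called only with the replicate block. The limits are the replicate 1 libraries, which widen the spread of siControl, siNELFA and siYAP, the 3 libraries a group, and HSPA1A and HSPA1B sharing sequence. The cause of the changes below was not tested. Fits with fewer libraries use less data, and the part of that was not tested either. For siNELFA against siControl, 1 gene was called, against 27 by DESeq2, 3 without the filter on low counts, 924 with the replicate block, 8 with all 12 libraries, 18 in replicates 2 and 3, and 44 with the block and all 12 libraries. Members called went from 0 to 2 with the replicate block and to 1 with the block and all 12 libraries. For siYAP against siControl, 1 gene was called, against 2 by DESeq2 and 3 with the replicate block. For siNELFA+siYAP against siControl, 75 genes were called, against 1348 by DESeq2, 381 without the filter, 2 with the replicate block, 3259 in replicates 2 and 3, and 980 with the block and all 12 libraries, and members called went from 0 to 3 in replicates 2 and 3. For siNELFA+siYAP against siYAP, 6 genes were called, against 770 by DESeq2, 222 without the filter, 1 with the replicate block, 1349 in replicates 2 and 3, and 313 with the block and all 12 libraries, and members called went from 0 to 1 in replicates 2 and 3. For siNELFA+siYAP against siNELFA, 1 gene was called, against 45 by DESeq2, 26 without the filter, 28 in replicates 2 and 3, and 8 with the block and all 12 libraries.

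With each library left out in turn, genes called ran from 0 to 1 for siNELFA and for siYAP against siControl. They ran from 0 to 4531 (without siControl replicate 1) for siNELFA+siYAP against siControl, from 0 to 2937 (without siYAP replicate 1) against siYAP and from 1 to 228 (without siNELFA replicate 1) against siNELFA. Members called ran from 0 to 5, 0 to 3 and 0 to 1 in these 3 comparisons, with the highest counts without the same libraries. In the single-knockdown comparisons 0 members were called whichever library was left out.

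None of the reversed values that follow had an adjusted p under 0.05, but 2 members were called with the opposite sign without another library: HSPH1 with both pools against siControl, at -0.20 without siControl replicate 1, and HSPA8 with both pools against siYAP, at -0.36 without siYAP replicate 1. With each library left out in turn, the log2 fold change in siNELFA against siControl ran from -0.010 to 0.27 for HSPH1, -0.075 to 0.45 for BAG3, -0.27 to 0.10 for HSPA8, -0.28 to 0.063 for HSPD1 and -0.13 to 0.071 for HSPE1. In siYAP against siControl it ran from -0.20 to 0.22 for HSPA1A, -0.055 to 0.14 for HSPA1B, -0.42 to 0.030 for HSPH1, -0.14 to 0.37 for BAG3, -0.41 to 0.11 for HSPA8, -0.51 to 0.069 for HSP90AA1, -0.47 to 0.033 for HSPD1 and -0.39 to 0.0093 for HSPE1. In siNELFA+siYAP against siControl it ran from -0.028 to 0.31 for HSPA1A, -0.20 to 0.072 for HSPH1, -0.17 to 0.071 for DNAJB1 and -0.070 to 0.28 for HSPB1. Against siYAP it ran from -0.062 to 0.32 for HSPA1A, -0.051 to 0.40 for HSPH1, -0.36 to 0.14 for HSPA8, -0.29 to 0.20 for HSPD1 and -0.074 to 0.31 for HSPE1. Against siNELFA it ran from -0.32 to 0.10 for HSPA1A, -0.28 to 0.15 for HSP90AA1, -0.32 to 0.030 for HSPD1 and -0.13 to 0.071 for HSPE1. The difference of the siNELFA effects ran from -0.37 to 0.061 for HSPA1A, -0.21 to 0.24 for HSPH1, -0.14 to 0.10 for DNAJB1, -0.20 to 0.32 for BAG3, -0.29 to 0.21 for HSPA8, -0.14 to 0.43 for HSP90AA1, -0.17 to 0.32 for HSPD1 and -0.019 to 0.37 for HSPE1.

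In replicates 2 and 3 alone, signs turned for HSPE1 (0.021) in siNELFA against siControl, for HSPA1B (-0.039) and HSPB1 (-0.031) in siYAP, and for HSPA1A (-0.0015) and HSPB1 (-0.024) with both pools. Against siYAP they turned for HSPA1A (-0.041), HSPH1 (-0.054), HSPB1 (0.0093) and HSPE1 (-0.061), and in the difference of effects for HSPH1 (-0.10), DNAJB1 (0.015), HSP90AA1 (-0.16), HSPD1 (-0.24) and HSPE1 (-0.086). With the replicate block the difference of effects turned for HSPA8, to 0.011. With the block and all 12 libraries, signs turned for HSPH1 (0.017) with both pools against siControl, for HSPD1 (0.0030) against siYAP, and for HSP90AA1 (0.0014) and HSPE1 (0.0071) against siNELFA. On log2(TPM + 1) and log2(TPM + 0.1), signs turned for HSPH1 (-0.068 in both) and DNAJB1 (-0.012 in both) in siNELFA against siControl, for DNAJB1 (-0.011 and -0.012) with both pools against siYAP, and for HSP90AA1 (0.056 and 0.057) and HSPE1 (0.073 in both) against siNELFA.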

Other observations

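Among the other chaperones, all 8 subunit genes of the cytosolic chaperonin TRiC, which together fold actin and tubulin, were lower in siYAP than in siControl (median log2 fold change -0.15, against -0.002 over all tested genes), and all 8 were higher with both pools than in siYAP (median 0.28, against -0.03). Both comparisons use the same siYAP libraries, so they are not independent. In each of them 0 of the 8 genes were under 0.05 unadjusted by edgeR. In siNELFA, 5 of the 8 were higher and 3 lower. Of 16 tested J-domain co-chaperone genes, 12 were higher in siNELFA and 12 with both pools than in siControl, and 14 of 16 with both pools than in siYAP (median 0.22). In siYAP 6 of the 16 were higher than in siControl and 10 lower. Of 8 further genes known to be induced with heat shock, 7 were higher in siNELFA (median 0.28) and 7 in siYAP (median 0.08). With both pools 5 were higher than in siControl (median 0.23), 4 than in siYAP and 4 than in siNELFA. Over all tested genes the medians against siControl were 8.0e-05 in siNELFA, -0.002 in siYAP and -0.03 with both pools. The comparisons with siControl share its libraries. Of 11 tested HSP70 and HSP110 relatives, 6 were higher in siNELFA, as were 10 of 17 BAG and other co-chaperones, 1 of 3 HSP90 relatives, 3 of 4 tested heat shock factor genes and 1 of 2 tested small heat shock genes. All 3 HSP90 relatives were lower in siYAP and with both pools than in siControl, and all 4 tested heat shock factor genes were lower with both pools than in siNELFA (median -0.22). edgeR called 0 genes of these lists in any comparison without the replicate block, and with it 5 in siNELFA against siControl, of which 2 were J-domain genes.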
